A study of Mus musculus with 32 samples.

Results

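The genes described here are 10 enzymes and cofactors of eicosanoid and epoxide metabolism: the P450 epoxygenases Cyp2j5, Cyp2j6 and Cyp2j9, the epoxide hydrolases Ephx1 and Ephx2, the leukotriene genes Alox5, Alox5ap and Lta4h, and the cyclooxygenases Ptgs1 and Ptgs2. They were taken by symbol from 2 deposited tables of raw gene counts, 1 for females and 1 for males, and all 10 were found among the 41585 genes of each table. Eicosanoids are signalling lipids cut from arachidonic acid, which phospholipases release from membranes. P450 epoxygenases turn arachidonic acid into epoxides that epoxide hydrolases open into diols, while 5-lipoxygenase starts the leukotrienes and cyclooxygenases start the prostaglandins. In liver the P450s and epoxide hydrolases are mostly hepatocyte enzymes, while 5-lipoxygenase and its activating protein are best known from macrophages and other leukocytes.

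RNA was sequenced from the livers of 32 mice in 8 groups of 4. Wild type (WT) C57Bl/6J mice were compared with Cyp2b-null mice, a line in which Cyp2b9, Cyp2b10 and Cyp2b13 were deleted together with CRISPR/Cas9. Mice of each sex and genotype were 10 weeks old at the start and ate 1 of 2 diets for 8 weeks. The normal diet (ND) held 6.2% fat. The other, called CDAHFD, lacked choline, had its protein replaced by L-amino acids with 0.1% methionine, held 62% fat and is used to induce steatohepatitis. The sources used here do not say whether these fat values are by weight or by energy, so they may not share a scale. The 8 groups were ND-fed WT, CDAHFD-fed WT, ND-fed Cyp2b-null and CDAHFD-fed Cyp2b-null females, and the same 4 groups of males. WT mice were bought at 6 weeks of age and acclimated for 4 weeks whereas the Cyp2b-null mice were of the laboratory's own line, so genotype and origin cannot be told apart. Likewise, sex and count table cannot be told apart.

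Library totals ran from 2906411 to 10166959 counts, so that the upper limit allowed by a count of 0 (3 counts) lay between 0.249 and 1.15 CPM (counts scaled for library size), for counting error only. All 5 hepatocyte markers (Alb, Apoa1, Ttr, Cps1 and Fgb) were present in each group, with a summed level between 54130 and 188478 CPM per library. In ND-fed females Cyp2b9 averaged 583 CPM in WT and 1.39 CPM in Cyp2b-null mice, and in ND-fed males Cyp2b10 averaged 11.2 and 0.470 CPM, so the targeted genes followed the labels. In ND-fed males Cyp2b9 and Cyp2b13 were near 0 in both genotypes and did not check them. Replicate 3 of the CDAHFD-fed Cyp2b-null females stood apart (r = 0.959 with the mean of the rest of its group, at least 0.976 for the other libraries). Some of the results that use it are also given without it.

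The 3 Cyp2j genes are close relatives, and their sequences show how far a read could tell them apart. Cyp2j6, Cyp2j9 and Cyp2j5 lie next to each other on the minus strand of chromosome 4 (GRCm38.p6), at chr4:96516138-96564305, chr4:96568424-96592523 and chr4:96627432-96664171. Their GENCODE coding sequences are 1503, 1506 and 1503 bases long, and identity was 78.3% between Cyp2j5 and Cyp2j6, 78.2% between Cyp2j5 and Cyp2j9 and 83.1% between Cyp2j6 and Cyp2j9. No window of 150 bases, the length of a read, was shared by any pair, and the longest shared run was 44 bases. The 90 coding bases in which the 3 genes are most alike, near the end of the coding sequence, are printed because they are the hardest test for assigning a read. Capitals mark the 9 positions at which the 3 are not all the same.
Cyp2j5: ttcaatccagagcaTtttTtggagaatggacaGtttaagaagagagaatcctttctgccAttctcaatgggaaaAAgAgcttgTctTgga
Cyp2j6: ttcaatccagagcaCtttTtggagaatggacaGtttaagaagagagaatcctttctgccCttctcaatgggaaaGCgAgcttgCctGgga
Cyp2j9: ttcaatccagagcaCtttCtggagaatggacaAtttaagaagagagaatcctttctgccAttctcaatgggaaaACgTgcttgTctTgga
Even here Cyp2j6 differed from Cyp2j5 at 6 positions and Cyp2j9 from Cyp2j5 at 5. Of the 7 further Cyp2j names looked for, 5 were in the tables, and their highest count in any library was 2. How reads with several matches were counted is not given in the sources used here.

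The other genes lie apart from one another. Ephx1 is at chr1:180989556-181017569, Ephx2 at chr14:66084372-66124522, Alox5 at chr6:116410071-116461178, Alox5ap at chr5:149265004-149288153, Lta4h at chr10:93453396-93484896, Ptgs1 at chr2:36216742-36258593 and Ptgs2 at chr1:150100031-150108234. In RefSeq, Alox5 overlaps the long noncoding RNA gene Gm38880, so its few reads are uncertain in origin, and the other 9 genes overlap none.

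Levels differed widely among the 10 genes. Per kilobase of exon, in ND-fed WT females, Cyp2j5 was the most abundant at 303 CPM per kb, followed by Ephx2 at 208 and Ephx1 at 179 CPM per kb. Cyp2j6 stood at 18.3, Lta4h at 5.18 and Ptgs1 at 3.72 CPM per kb. Cyp2j9 at 1.68 and Alox5ap at 1.66 CPM per kb were close, and Alox5 at 0.0656 and Ptgs2 at 0.0292 CPM per kb were near the limit of detection. In ND-fed WT males the first 3 were again Cyp2j5 (369 CPM per kb), Ephx2 (357) and Ephx1 (271). The plot of CPM by library shows each value of the 10 genes.

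**Figure D1:**
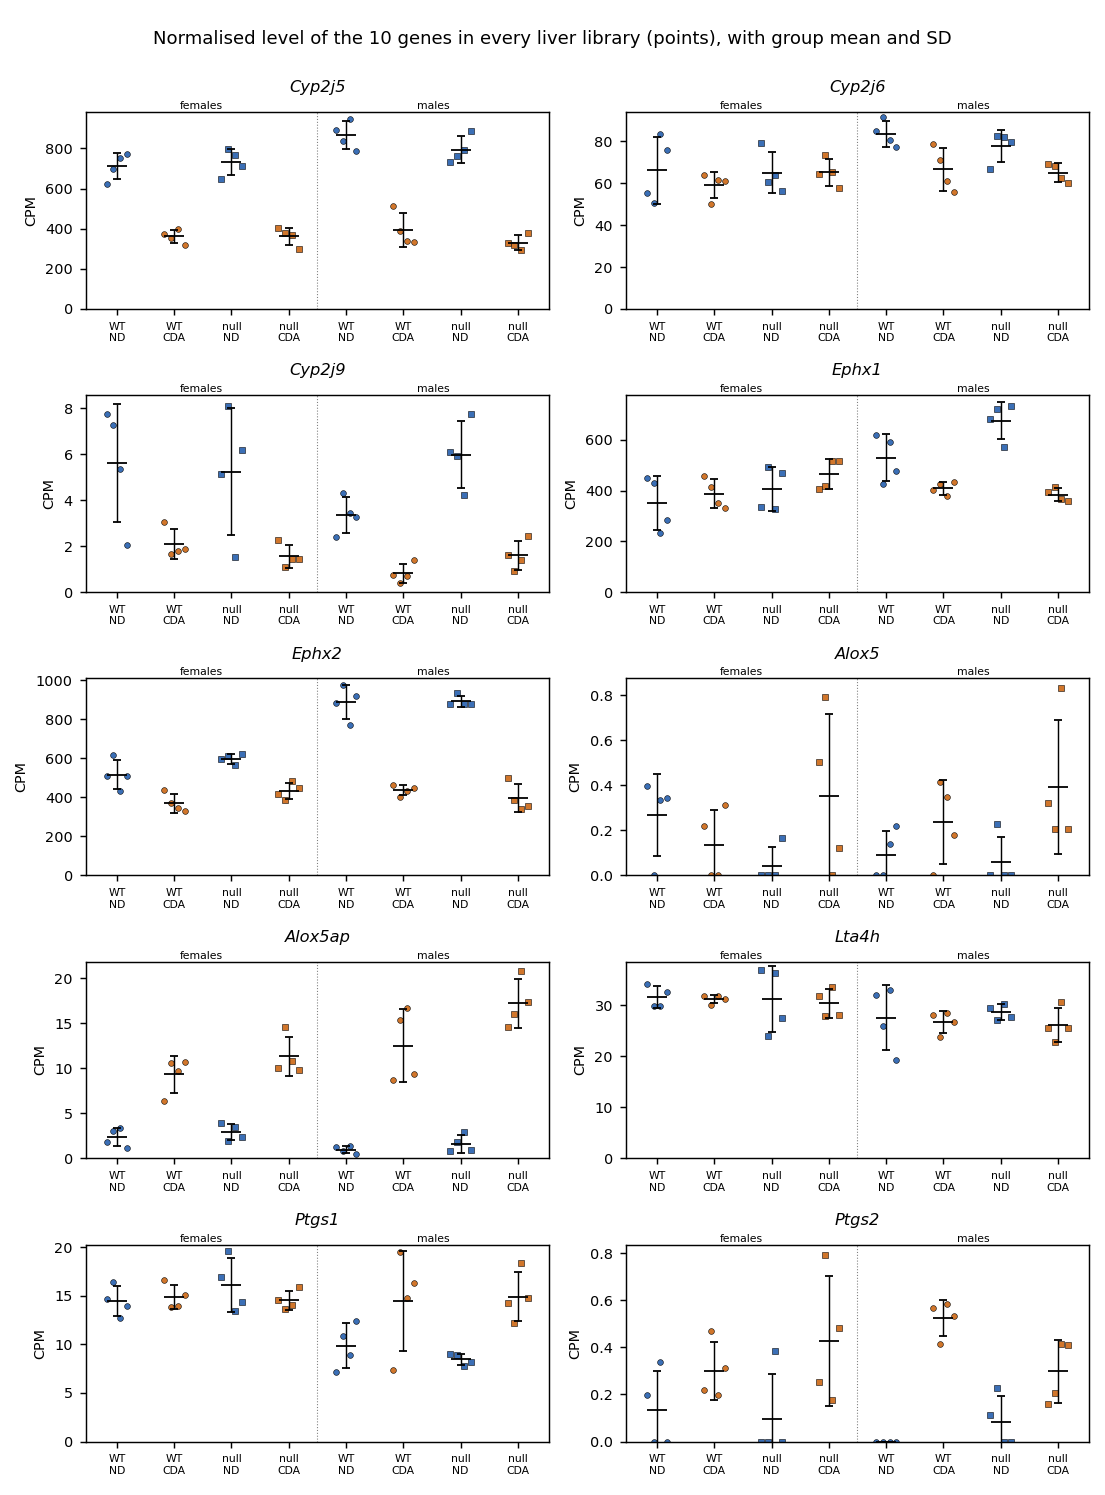
Each panel plots the CPM of 1 gene (vertical axis) in the 4 libraries of each of the 8 groups, with ND in blue, CDAHFD (CDA) in orange, WT as circles, Cyp2b-null (null) as squares, and bars for the group mean and SD. Cyp2j5 is lower and Alox5ap higher in all 16 CDAHFD libraries than in any of the 16 ND libraries, while Lta4h stays between 19.2 and 36.8 CPM throughout.

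The first question was how the diet changed each gene within a sex and genotype. With edgeR's quasi-likelihood test, fitted over all 4 groups of a sex with Benjamini-Hochberg adjustment over all genes tested, 8 of the 10 genes passed the filter on low counts. Alox5 and Ptgs2 did not pass it, and their values come from a second fit that kept all 10. In WT females 4 of the 8 genes that passed changed at an adjusted p under 0.05, 1 higher (Alox5ap) and 3 lower (Cyp2j5, Cyp2j9 and Ephx2). Across all 13226 genes tested in that comparison 13.9% were called higher and 10.2% lower. In Cyp2b-null females the count was again 1 higher and 3 lower, against 16.9% and 13.9% of all genes, and without the library that stands apart it was also 1 and 3.

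In WT males 6 of the 8 genes that passed changed, Alox5ap higher and Cyp2j5, Cyp2j6, Cyp2j9, Ephx1 and Ephx2 lower. There 18% of the 13460 genes tested were called higher and 15% lower. In Cyp2b-null males Alox5ap and Ptgs1 rose and Cyp2j5, Cyp2j9, Ephx1 and Ephx2 fell, where 20.3% of all genes were called higher and 17.1% lower. The fit that kept all 10 genes also called Ptgs2 higher in WT males and Alox5 higher in Cyp2b-null males. The median log2 change over the genes that passed was -0.06 in both female comparisons, -0.35 in WT males and -0.53 in Cyp2b-null males. The median over all genes was -0.00, 0.03, -0.02 and -0.01 in the same order. The plot of diet effects gives the 4 changes of each gene side by side. With libraries scaled by their totals alone, in place of trimmed means (TMM), the median log2 change of all genes was 0.32 in WT females, 0.28 in Cyp2b-null females, 0.37 in WT males and 0.36 in Cyp2b-null males. The percent of all genes called higher and lower was then 29.6 and 3.71, 30.4 and 5.04, 38.0 and 4.31, and 38.3 and 6.08, in the same order. Changes are therefore to be read against the bulk of genes, and where that scaling turned a direction the value is given.

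**Figure D2:**
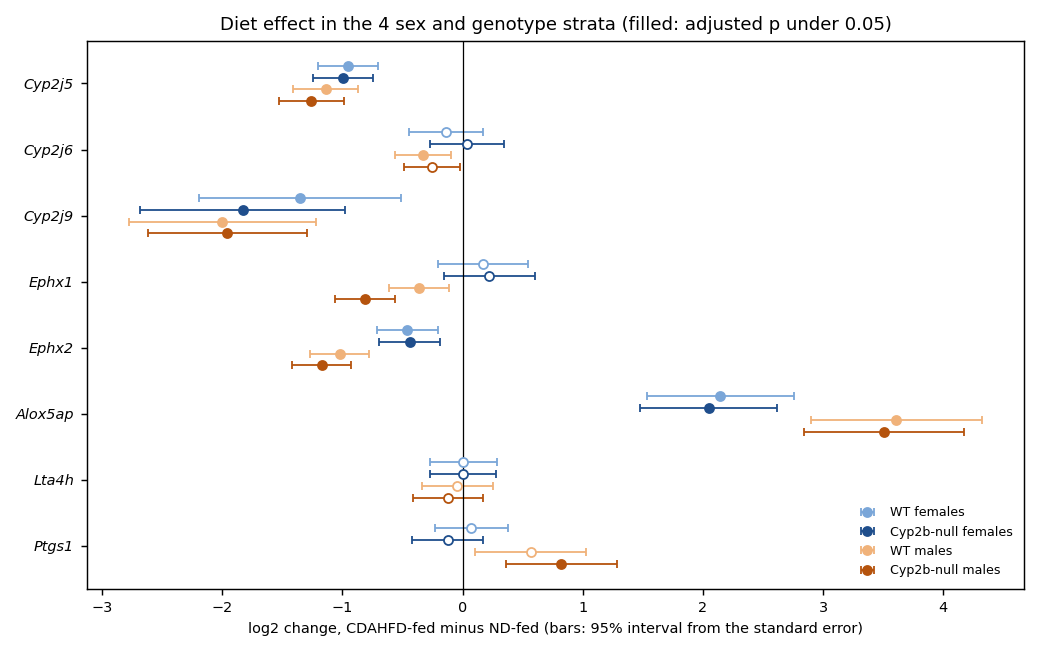
Points give the log2 change of CDAHFD against ND (horizontal axis) for each gene in WT and Cyp2b-null (null) mice of each sex, with bars of 1.96 standard errors and filled points for an adjusted p under 0.05. Cyp2j5 and Cyp2j9 lie below 0 and Alox5ap above 0 in all 4 comparisons, whereas Lta4h lies between -0.12 and 0.01.

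Cyp2j5 encodes an abundant arachidonic acid epoxygenase of mouse liver and kidney, and it fell in each diet comparison. In WT females the 4 ND libraries read 625, 698, 750 and 771 CPM and the 4 CDAHFD libraries 373, 353, 398 and 320 CPM. In Cyp2b-null females the values were 649, 798, 766 and 714 CPM on ND and 403, 376, 367 and 299 CPM on CDAHFD. No CDAHFD library of females reached the lowest ND library, in either genotype. WT males read 892, 837, 947 and 786 CPM on ND and 511, 389, 340 and 331 CPM on CDAHFD. Cyp2b-null males read 731, 761, 794 and 886 CPM on ND and 330, 320, 292 and 379 CPM on CDAHFD. The groups did not overlap in males either.

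Over the means, Cyp2j5 went from 711 ± 65.2 to 361 ± 33.0 CPM (SD, n = 4) in WT females and from 866 ± 69.6 to 393 ± 82.8 CPM in WT males. The log2 change of Cyp2j5 was -0.95 (SE 0.13, edgeR adjusted p = 1.27e-05) in WT females and -0.99 (SE 0.13, adjusted p = 7.7e-06) in Cyp2b-null females. It was -1.14 (SE 0.14, adjusted p = 1.84e-06) in WT males and -1.26 (SE 0.14, adjusted p = 3.97e-07) in Cyp2b-null males. These correspond to 0.517, 0.502, 0.455 and 0.417 times the ND level. Ordered by mean, all 4 ND groups lay above all 4 CDAHFD groups, with a gap between ND-fed WT females and CDAHFD-fed WT males and overlap between every other pair of neighbours.

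Cyp2j5 moved with the hepatocyte markers, whose summed level was also lower on CDAHFD, with a mean of 152697 CPM on ND and 89152 CPM on CDAHFD in WT females and of 124523 and 78278 CPM in WT males. In Cyp2b-null mice the sum was 154050 and 94391 CPM in females and 114137 and 71638 CPM in males. Of the 5 markers, all 5 were called lower in WT males and 4 in each of the other 3 comparisons. Scaled by library totals alone, 1 was called lower in WT males and 3 in each of the others. In bulk liver, fewer cells of a type and less RNA per cell cannot be told apart. Per 1000 CPM of these markers, a ratio that Alb dominates, Cyp2j5 averaged 4.74 on ND and 4.07 on CDAHFD in WT females, with overlapping libraries. The same ratio was 4.80 and 3.88 in Cyp2b-null females, 6.97 and 5.08 in WT males and 6.99 and 4.66 in Cyp2b-null males, with no overlap in those 3. The part of hepatocyte content in the fall of Cyp2j5 was not tested further.

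The stretch upstream of Cyp2j5, the most abundant of the 10 genes per kilobase in ND-fed WT mice, is shown because it holds the motif matches of this promoter. In the RefSeq promoter table of GRCm38.p6, which gives 300 bases a gene (250 before the start base and 50 from it on), 8 of the 10 genes had an entry, all except Ephx2 and Alox5ap. Its start bases can lie inside the gene spans given above, as for Cyp2j5 (chr4:96664119). The windows of Cyp2j6 (chr4:96553602-96553901) and Ptgs1 (chr2:36230176-36230475) lie wholly inside theirs. The 120 bases at chr4:96664220-96664339 on the minus strand, from offset -220 to -101 of the start base, read as below, with capitals marking the matches.
Cyp2j5 promoter: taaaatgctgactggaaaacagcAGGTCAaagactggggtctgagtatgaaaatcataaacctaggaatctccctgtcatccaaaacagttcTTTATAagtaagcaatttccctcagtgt
Each motif was searched on both strands, and none of these matches overlapped another. The letters AGGTCA, the half-site that many nuclear receptors bind, began at offset -197 in Cyp2j5 and were absent from the windows of the other 7 genes, while 16.3% of all 32851 promoters of this length held them on either strand. The second match in Cyp2j5, at offset -128, is the TATA box motif, TATAAA, on the opposite strand. Ephx1 held this motif as well, and 13.6% of all promoters did. The letters CCAAT were found on the opposite strand at offset -5 in Cyp2j6 and at offset 6 in Cyp2j9. Ephx1 and Lta4h held them as well, which made 4 of the 8 genes, and 37.4% of all promoters held them on either strand. The GC box, searched as GGGCGG, began at offset -66 in Cyp2j6. Alox5, Ephx1 and Ptgs2 held it as well, which made 4 of the 8 genes, and 35.7% of all promoters held it. A match describes these letters only.

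Cyp2j6, a neighbouring epoxygenase gene known from intestine as well as liver, was called in 1 of the 4 diet comparisons. In WT females it read 55.2, 50.4, 83.3 and 75.7 CPM on ND and 63.7, 50.1, 61.6 and 61.1 CPM on CDAHFD. In Cyp2b-null females it read 79.1, 60.8, 64.0 and 56.3 CPM on ND and 64.2, 73.6, 65.4 and 57.9 CPM on CDAHFD. The groups overlapped, and the log2 changes were -0.14 (SE 0.16, edgeR adjusted p = 0.589) and 0.04 (SE 0.16, adjusted p = 0.887). In WT males the values were 84.8, 91.9, 80.7 and 77.3 CPM on ND and 78.9, 71.1, 60.9 and 55.9 CPM on CDAHFD. The highest CDAHFD library lay above the lowest ND library, and the log2 change was -0.33 (SE 0.12, edgeR adjusted p = 0.0395). This call was lost without ND-fed WT males replicate 1, 2 or 3 or CDAHFD-fed WT males replicate 3 or 4, with an adjusted p of up to 0.137. In Cyp2b-null males it read 66.8, 82.8, 82.3 and 79.6 CPM on ND and 69.1, 68.4, 62.3 and 60.0 CPM on CDAHFD, with a log2 change of -0.25 (SE 0.12, edgeR adjusted p = 0.0996), or -0.33 (adjusted p = 0.0479) without ND-fed Cyp2b-null males replicate 1. Scaled by library totals alone, Cyp2j6 was above 0 in WT females (0.18), WT males (0.06) and Cyp2b-null males (0.12), below the median of all genes in each. Per 1000 CPM of hepatocyte markers it averaged 0.445 on ND and 0.669 on CDAHFD in WT females and 0.426 and 0.707 in Cyp2b-null females, without overlap. The ratio was 0.675 and 0.871 in WT males and 0.685 and 0.929 in Cyp2b-null males, with overlap. The part of hepatocyte content was not tested further.

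Cyp2j9, an epoxygenase paralog best known from brain, was low in these livers and fell with the diet. It had 546 counts in all libraries together. CDAHFD-fed WT males had only 2 to 8 counts a library, near the limit for a count of 0 (0.350 to 0.623 CPM there). WT females read 7.74, 7.26, 5.37 and 2.06 CPM on ND and 3.06, 1.65, 1.79 and 1.87 CPM on CDAHFD. Cyp2b-null females read 5.13, 8.12, 1.53 and 6.18 CPM on ND and 2.26, 1.11, 1.42 and 1.44 CPM on CDAHFD. In each female genotype 1 ND library lay within the CDAHFD range, replicate 4 in WT and replicate 3 in Cyp2b-null mice. WT males read 2.39, 4.30, 3.43 and 3.28 CPM on ND and 0.757, 0.416, 0.700 and 1.42 CPM on CDAHFD. Cyp2b-null males read 6.10, 5.91, 4.21 and 7.74 CPM on ND and 1.61, 0.935, 1.41 and 2.46 CPM on CDAHFD. In males the diets did not overlap.

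The log2 change of Cyp2j9 was -1.35 (SE 0.43, edgeR adjusted p = 0.0253) in WT females and -1.83 (SE 0.43, adjusted p = 0.00305) in Cyp2b-null females. It was -2.00 (SE 0.40, adjusted p = 0.000496) in WT males and -1.96 (SE 0.34, adjusted p = 9.97e-05) in Cyp2b-null males. The call in WT females was lost without ND replicate 1 or 2 or CDAHFD replicate 2, 3 or 4 of that genotype, with log2 changes of -1.30 to -1.09 and adjusted p of 0.0588 to 0.118. It was also lost when libraries were scaled by their totals alone (adjusted p = 0.0718). The other 3 calls of Cyp2j9 remained without any 1 library. Without the library that stands apart the change in Cyp2b-null females was -1.81 (adjusted p = 0.00829).

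Ephx2 encodes soluble epoxide hydrolase, which turns the fatty acid epoxides made by the epoxygenases into diols, and it fell in each diet comparison. WT females read 509, 615, 434 and 508 CPM on ND and 435, 370, 343 and 328 CPM on CDAHFD. Cyp2b-null females read 595, 611, 563 and 621 CPM on ND and 416, 388, 482 and 445 CPM on CDAHFD. The WT groups touched, with the highest CDAHFD library at 435 and the lowest ND library at 434 CPM, and the Cyp2b-null groups were apart. WT males read 883, 977, 770 and 921 CPM on ND and 464, 403, 431 and 445 CPM on CDAHFD. Cyp2b-null males read 881, 935, 878 and 880 CPM on ND and 501, 389, 338 and 355 CPM on CDAHFD. In males each ND library was far above each CDAHFD library.

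The log2 change of Ephx2 was -0.46 (SE 0.13, edgeR adjusted p = 0.0117) in WT females and -0.44 (SE 0.13, adjusted p = 0.0130) in Cyp2b-null females, or -0.49 without the library that stands apart. It was -1.02 (SE 0.13, adjusted p = 2.3e-06) in WT males and -1.17 (SE 0.13, adjusted p = 3.22e-07) in Cyp2b-null males. With libraries scaled by their totals alone the female changes were -0.13 (adjusted p = 0.430) and -0.19 (adjusted p = 0.246), and the male calls remained. Beside the hepatocyte markers, Ephx2 averaged 3.42 on ND and 4.15 on CDAHFD per 1000 marker CPM in WT females and 3.91 and 4.70 in Cyp2b-null females. In WT males the ratio was 7.15 and 5.82, and in Cyp2b-null males 7.85 and 5.61. The diets overlapped in this ratio in both female genotypes and in WT males, and not in Cyp2b-null males. The part of hepatocyte content in the fall of Ephx2 was not tested further.

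Ephx1 encodes microsomal epoxide hydrolase, which detoxifies xenobiotic epoxides and also acts on some fatty acid epoxides. WT females read 449, 431, 234 and 284 CPM on ND and 456, 412, 351 and 330 CPM on CDAHFD. Cyp2b-null females read 334, 492, 326 and 467 CPM on ND and 408, 418, 517 and 515 CPM on CDAHFD. The female groups overlapped, and the log2 changes were 0.17 (SE 0.19, edgeR adjusted p = 0.578) and 0.22 (SE 0.19, adjusted p = 0.403). WT males read 619, 426, 592 and 477 CPM on ND and 403, 424, 377 and 434 CPM on CDAHFD, a mean of 528 ± 92.4 against 409 ± 25.4 CPM. Cyp2b-null males read 680, 719, 570 and 732 CPM on ND and 395, 413, 368 and 360 CPM on CDAHFD, a mean of 675 ± 73.7 against 384 ± 24.3 CPM. The WT groups overlapped through ND replicate 2, and the Cyp2b-null groups did not overlap.

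In males the log2 change of Ephx1 was -0.37 (SE 0.13, edgeR adjusted p = 0.0315) in WT and -0.81 (SE 0.13, adjusted p = 3.6e-05) in Cyp2b-null mice. The WT call was lost without ND-fed WT males replicate 1 or 3 or CDAHFD-fed WT males replicate 1 or 3, with log2 changes of -0.34 to -0.28 and adjusted p of 0.0718 to 0.118. With libraries scaled by their totals alone it was 0.02, where the median of all genes was itself 0.37. Per 1000 CPM of hepatocyte markers Ephx1 averaged 2.34 on ND and 4.35 on CDAHFD in WT females and 2.67 and 5.08 in Cyp2b-null females, with no overlap between diets. The ratio was 4.23 and 5.46 in WT males and 5.95 and 5.49 in Cyp2b-null males.

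In the list of other epoxygenases and epoxide hydrolases (8 Cyp2c genes with Ephx3 and Ephx4) the Cyp2c genes went lower. Of its 10 genes 8, all Cyp2c, were tested. Of these, 7 were called lower in WT females, 7 in Cyp2b-null females, 5 in WT males and 7 in Cyp2b-null males, with none higher. Of all genes 10.2%, 13.9%, 15% and 17.1% were called lower in the same order. The median log2 changes over the tested genes were -1.19, -0.88, -0.75 and -0.84 in that order. Scaled by library totals alone, 7, 4, 4 and 4 were called lower and 1 was called higher in WT males. Cyp2c29, an abundant epoxygenase of mouse liver, went from 1940 to 448 CPM in WT females (log2 change -2.09) and from 2234 to 176 CPM in WT males (-3.66). Cyp2c39 (-2.01) and Cyp2c55 (-1.20) also fell in WT females, and Cyp2c54 (-1.49) and Cyp2c70 (-0.81) in WT males. Ephx3 and Ephx4 had at most 4 counts in any library.

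Alox5ap encodes the 5-lipoxygenase activating protein, which hands arachidonic acid to 5-lipoxygenase, and it rose more than any other of the 8 genes that passed the filter. WT females read 1.79, 3.06, 3.36 and 1.20 CPM on ND and 6.33, 10.6, 9.74 and 10.7 CPM on CDAHFD. Cyp2b-null females read 3.93, 1.98, 3.45 and 2.34 CPM on ND and 10.0, 14.6, 10.9 and 9.87 CPM on CDAHFD. Each CDAHFD library of females was above each ND library. WT males read 1.29, 0.826, 1.37 and 0.437 CPM on ND and 8.71, 15.4, 16.7 and 9.38 CPM on CDAHFD. Cyp2b-null males read 0.777, 1.82, 2.95 and 0.885 CPM on ND and 14.6, 15.99, 20.8 and 17.4 CPM on CDAHFD. Males on CDAHFD likewise stood clear of males on ND.

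The log2 change of Alox5ap was 2.14 (SE 0.31, edgeR adjusted p = 2.95e-05) in WT females and 2.05 (SE 0.29, adjusted p = 2.18e-05) in Cyp2b-null females, or 4.42 and 4.13 times the ND level. It was 3.61 (SE 0.36, adjusted p = 1.66e-07) in WT males and 3.51 (SE 0.34, adjusted p = 7.5e-08) in Cyp2b-null males, or 12.2 and 11.4 times. Without the library that stands apart the change in Cyp2b-null females was 2.08 (adjusted p = 4.54e-05). All 4 CDAHFD groups lay above all 4 ND groups, with overlap only between neighbours of the same diet.

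Macrophage markers moved with Alox5ap. All 6 (Adgre1, Cd68, Csf1r, Clec4f, Lyz2 and Ctss) were present in each group. In each of the 4 comparisons 5 of the 6, all except Clec4f, were called higher on CDAHFD. Their summed level ran from 289 to 477 CPM in ND-fed and from 825 to 1346 CPM in CDAHFD-fed females, and from 132 to 252 CPM in ND-fed and from 657 to 1566 CPM in CDAHFD-fed males. Per 1000 CPM of these markers Alox5ap averaged 6.11 on ND and 9.72 on CDAHFD in WT females and 7.78 and 10.5 in Cyp2b-null females. The ratio was 5.49 and 12.6 in WT males, the comparison without overlap, and 9.53 and 15.4 in Cyp2b-null males. Neutrophil markers were also higher, from a sum of 3.41 to 16.3 CPM in WT females and from 1.52 to 12.6 CPM in WT males, while Ly6g, a defining neutrophil marker, had 0 counts in all 8 groups. The part of these cells in the rise of Alox5ap was not tested further, and the plot of Alox5ap against the macrophage markers shows both.

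**Figure D3:**
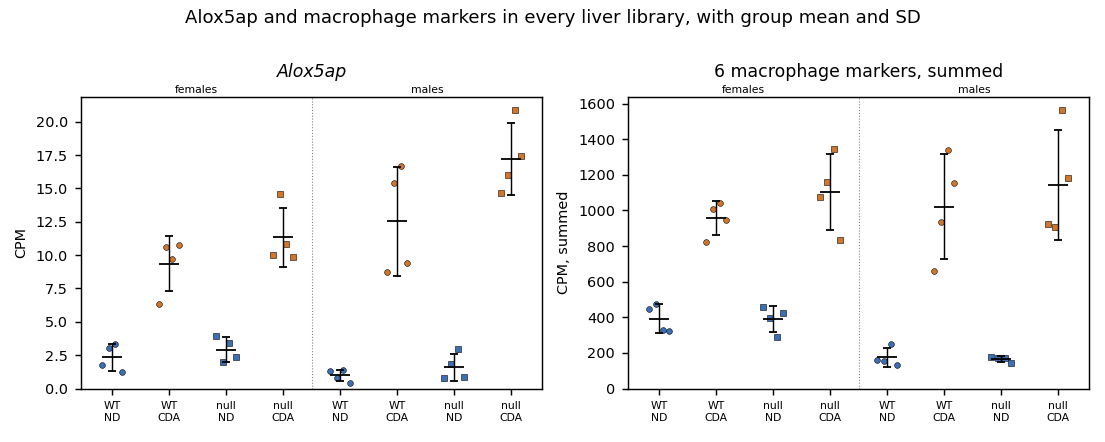
The left panel plots Alox5ap in CPM and the right panel the summed CPM of the 6 macrophage markers, 1 point a library, by group (ND blue, CDAHFD or CDA orange, WT circles, Cyp2b-null or null squares), with the mean and SD. The CDAHFD libraries start at 6.33 CPM of Alox5ap and 657 CPM of the markers, above the highest ND libraries at 3.93 and 477 CPM.

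Lta4h encodes leukotriene A4 hydrolase, which makes leukotriene B4, and it stayed level. It ranged over all 32 libraries from 19.2 CPM in an ND-fed WT male to 36.8 CPM in an ND-fed Cyp2b-null female. The log2 changes with diet were 0.01 (SE 0.14) in WT females, 0.00 (SE 0.14) in Cyp2b-null females, -0.04 (SE 0.15) in WT males and -0.12 (SE 0.15) in Cyp2b-null males, with edgeR adjusted p from 0.556 to 0.995. The lowest lower bound of the 95% intervals was -0.42, so a fall of that size is within the error. Scaled by library totals alone, Lta4h was at 0.35 in WT males and 0.26 in Cyp2b-null males, close to the median of all genes. Groups overlapped at each step of their order.

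Alox5, which encodes 5-lipoxygenase itself, had 41 counts in all libraries together, at most 10 in 1 library and 0 in 13 libraries. Cyp2b-null males had 15 counts on CDAHFD against 1 on ND, a ratio in CPM of 10.4 with an exact 95% interval from 1.60 to 437 for counting error. Replicate 3 of the CDAHFD-fed Cyp2b-null males held 10 of the 15, and the edgeR adjusted p of 0.0451 in the fit that kept all 10 genes became 0.236 without it. It passed 0.05 as well without ND-fed Cyp2b-null males replicate 1, 3 or 4 or CDAHFD-fed replicate 1, the lowest such value being 0.0544. The Alox5 call was lost with DESeq2 (adjusted p = 0.0974) and without the low-count filter (0.154) as well. The ratio was 5.60 (0.751 to 248) in Cyp2b-null females, 2.88 (0.516 to 29.2) in WT males and 0.487 (0.0756 to 2.50) in WT females, which had 3 counts on CDAHFD and 5 on ND. At this depth a diet difference of Alox5 was not detectable in those 3 comparisons.

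The list of other lipoxygenase and leukotriene genes held 19, of which 5 were tested in females and 7 in males. In WT females 1 was called higher and 1 lower, in Cyp2b-null females 1 and 1, in WT males 3 and 1, and in Cyp2b-null males 4 and 1, with median log2 changes of 0.09, 0.63, 0.04 and 0.93. Cyp4f18, which inactivates leukotriene B4 in leukocytes, rose from 0.465 to 3.63 CPM in WT females and from 0.802 to 5.55 CPM in WT males. Cyp4f14, a related hydroxylase of liver, fell in WT females (log2 change -0.99) and in WT males (-0.90). Cysltr1, a receptor for cysteinyl leukotrienes, rose in WT males from 0.280 to 1.74 CPM. Dpep2, a dipeptidase that turns leukotriene D4 into leukotriene E4, was called higher in WT males, at 2.51 CPM on CDAHFD and 0 counts in all ND libraries.

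Ptgs1 encodes cyclooxygenase-1, the constitutive enzyme of prostaglandin and thromboxane synthesis. WT females read 14.7, 16.4, 12.8 and 13.9 CPM on ND and 16.6, 13.9, 13.9 and 15.1 CPM on CDAHFD. Cyp2b-null females read 16.9, 19.6, 13.4 and 14.4 CPM on ND and 14.5, 13.6, 14.1 and 15.9 CPM on CDAHFD. These groups overlapped, and the log2 changes were 0.07 (SE 0.16, edgeR adjusted p = 0.787) and -0.12 (SE 0.15, adjusted p = 0.568). WT males read 7.16, 10.9, 8.91 and 12.4 CPM on ND and 7.38, 19.5, 14.8 and 16.3 CPM on CDAHFD. Cyp2b-null males read 8.99, 8.87, 7.78 and 8.18 CPM on ND and 14.3, 12.3, 18.4 and 14.7 CPM on CDAHFD. In WT males CDAHFD replicate 1 lay among the ND libraries, and in Cyp2b-null males the diets were apart.

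In Cyp2b-null males Ptgs1 rose by a log2 change of 0.82 (SE 0.24, edgeR adjusted p = 0.00868). In WT males the change was 0.57 (SE 0.23, adjusted p = 0.0693) and did not pass, but it was 0.80 (adjusted p = 0.0033) without CDAHFD-fed WT males replicate 1 and 0.69 (adjusted p = 0.0448) without ND-fed WT males replicate 4. The 2 ND-fed male groups had the lowest levels of the 8, at 9.85 ± 2.31 and 8.46 ± 0.572 CPM, and their libraries did not reach those of the next group, ND-fed WT females. Platelet markers (Pf4, Ppbp, Itga2b and Gp9) summed to a mean between 2.05 and 3.82 CPM in each group, and the 1 of the 4 that passed the filter was not called in a diet comparison. Ppbp had 0 counts in 6 of the 8 groups and Pf4 in 4.

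Ptgs2 encodes cyclooxygenase-2, the inducible enzyme of inflammation, and had 45 counts in all libraries together, at most 5 in 1 library and 0 in 11. WT males had 0 counts in all 4 ND libraries and 3, 2, 5 and 3 counts in the CDAHFD libraries. With the ND group set at a limit of 3 counts, the CDAHFD level of Ptgs2 was 4.17 times that limit. This figure leaves out the counting error of the CDAHFD libraries, so it is not a lower bound like the intervals below. The edgeR adjusted p in the fit that kept all 10 genes was 0.00306. Cyp2b-null females had 11 counts on CDAHFD and 1 on ND (ratio 7.70, exact 95% interval 1.12 to 331, adjusted p = 0.0729, and 0.0306 without ND-fed Cyp2b-null females replicate 3). The ratio was 3.46 (0.737 to 32.5) in Cyp2b-null males and 2.43 (0.435 to 24.7) in WT females. In these last comparisons the interval included a ratio of 1.

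The list of prostanoid synthases and breakdown genes held 14 genes, 13 tested in females and 12 in males. The counts called higher and lower were 4 and 4 in WT females, 4 and 3 in Cyp2b-null females, 5 and 3 in WT males and 6 and 3 in Cyp2b-null males, with median log2 changes of -0.19, 0.22, 0.51 and 0.57. Scaled by library totals alone the counts were 4 and 3, 5 and 2, 7 and 1, and 7 and 1 in the same order. Hpgds, the haematopoietic prostaglandin D synthase, rose from 1.56 to 8.17 CPM in WT females and from 0.729 to 9.07 CPM in WT males, and Tbxas1, thromboxane synthase, from 2.51 to 10.4 CPM and from 1.47 to 10.3 CPM. Akr1b3 rose in WT females (log2 change 1.25) and Ptgis, prostacyclin synthase, in WT males (1.78). Slco2a1, the prostaglandin transporter, fell from 106 to 48.3 CPM in WT females and from 115 to 40.1 CPM in WT males. Cbr1 (-0.83), a carbonyl reductase, and Hpgd (-0.75), which oxidises and so inactivates prostaglandins, fell in WT females, and Ptgr2 (-0.51) and Ptges3 (-0.39) in WT males. With libraries scaled by totals alone Ptgr2 (-0.13) and Ptges3 (-0.00) in WT males were no longer called.

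Receptors and the release of arachidonic acid were the last lists. Of 9 prostanoid receptors 3 were tested in females and 4 in males, and 1, 2, 3 and 4 were called higher in WT females, Cyp2b-null females, WT males and Cyp2b-null males, with none lower and medians of 0.29, 0.73, 2.12 and 1.99. Ptger4, a prostaglandin E2 receptor, rose from 0.454 to 2.02 CPM in WT females and from 0.362 to 2.46 CPM in WT males, and Ptger1 rose from 21.8 to 36.9 CPM in WT males. Of 12 genes that release arachidonic acid or handle its carriers 6 were tested, and the counts called higher and lower were 2 and 0, 0 and 0, 1 and 2, and 1 and 2 in the same order, with medians of -0.07, 0.21, -0.00 and -0.30. Scaled by library totals alone they were 2 and 0, 3 and 0, 3 and 0, and 1 and 1. Pla2g4a, the cytosolic phospholipase A2, rose in WT females (log2 change 0.89, edgeR adjusted p = 0.0409) and in WT males (2.06, adjusted p = 0.00211). Pla2g6 rose in WT females (0.56), and Mgll (-0.61) and Faah (-0.39) fell in WT males. These last falls were not called when libraries were scaled by totals alone (Mgll -0.20, Faah 0.01, the latter turned in sign). The plot of list counts shows these numbers.

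**Figure D4:**
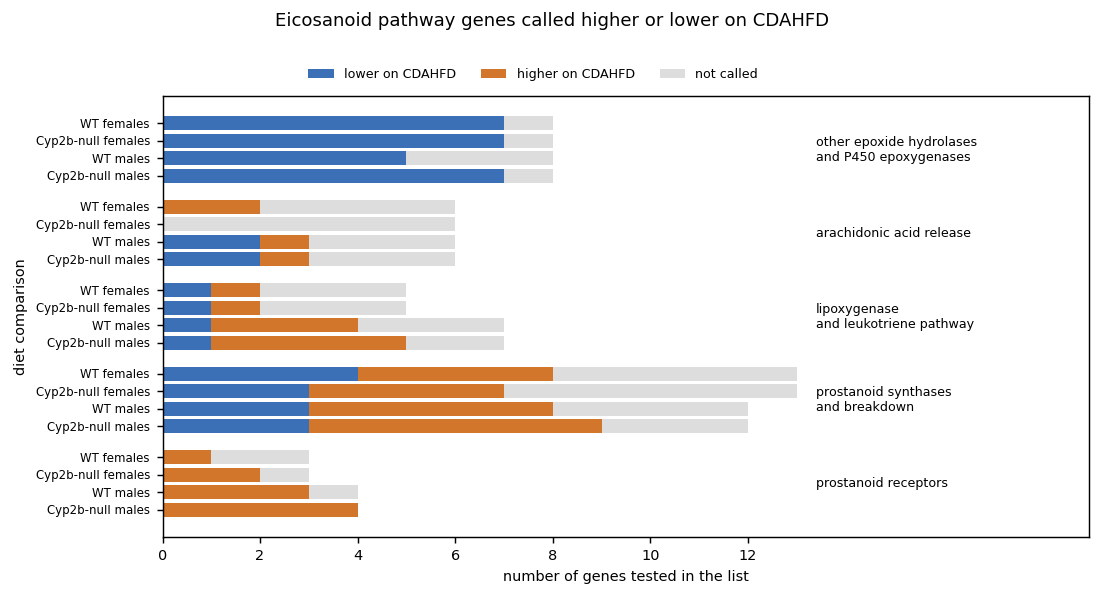
Stacked bars give, for each list of pathway genes and each diet comparison, the number of tested genes called lower (blue), called higher (orange) and not called (grey) at an adjusted p under 0.05. With TMM scaling the list of other epoxide hydrolases and P450 epoxygenases, of which only Cyp2c genes were tested, has 5 to 7 of 8 called lower and none higher. The receptor list has calls on the higher side only. Of all genes 13.9% to 20.3% were called higher and 10.2% to 17.1% lower.

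The second question was whether loss of the 3 Cyp2b genes changed these enzymes. None of the 10 was called in any of the 4 genotype comparisons by edgeR, by DESeq2, or in the edgeR fit that kept all 10. The share of all genes called was 0.0756% on ND and 0.0227% on CDAHFD in females, and 0.0371% on ND and 0.0297% on CDAHFD in males. At an unadjusted p under 0.05 there were 2 genes in ND-fed males and 0 in each of the other 3 comparisons. These were Ephx1, with a log2 difference of 0.35 (edgeR adjusted p = 0.431), and Cyp2j9, with 0.83 (adjusted p = 0.459). Over the 8 genes that passed the filter the log2 differences of Cyp2b-null against WT ran from -0.04 to 0.37 in ND-fed females and from -0.46 to 0.27 in CDAHFD-fed females. They ran from -0.21 to 0.83 in ND-fed males and from -0.25 to 0.87 in CDAHFD-fed males, with Cyp2j9 the highest in both. On CDAHFD that gene had 20 counts in WT males and 48 in Cyp2b-null males.

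The diet effect was also compared between genotypes. None of the 10 genes was called in females, where 0% of all genes were, or in males, where 0.00743% were, and DESeq2 called 0 in each. At an unadjusted p under 0.05 there were 0 in females and 1 in males, Ephx1, with a log2 difference of -0.45 (edgeR adjusted p = 0.699). Its ND levels in males were 528 ± 92.4 CPM in WT and 675 ± 73.7 CPM in Cyp2b-null mice, with overlapping libraries, and its CDAHFD levels 409 ± 25.4 and 384 ± 24.3 CPM. No gene of the pathway lists was called in a genotype comparison or in this interaction. The plot of genotype differences shows that all 95% intervals include 0 other than those of Cyp2j9 in males on both diets and of Ephx1 in ND-fed males.

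**Figure D5:**
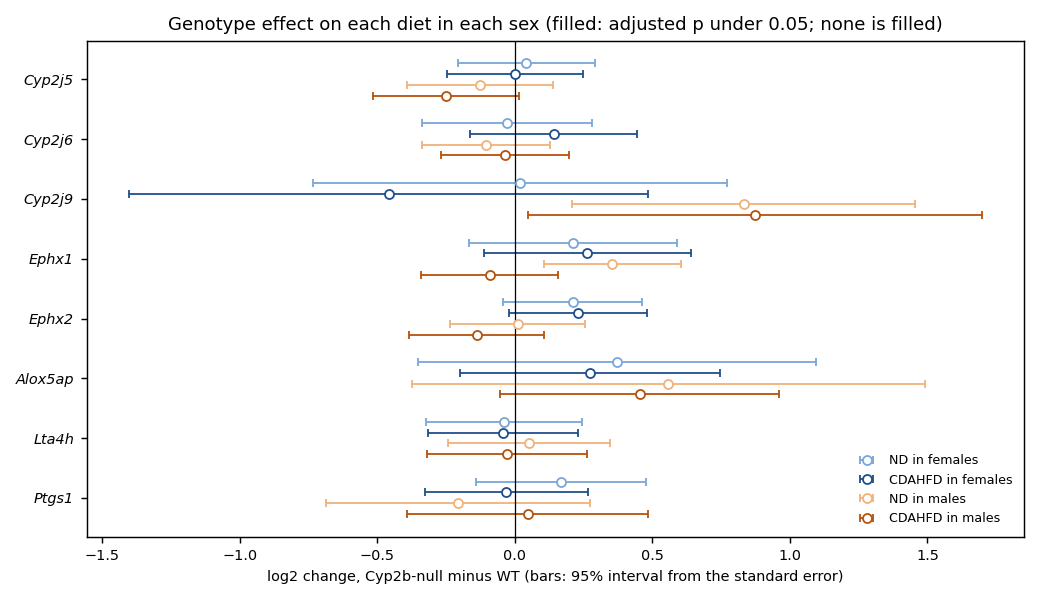
Points give the log2 difference of Cyp2b-null against WT mice (horizontal axis) for each gene in each sex and diet, with bars of 1.96 standard errors. No point is filled, since none had an adjusted p under 0.05, and the 8 genes plotted are those that passed the filter on low counts.

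The last comparison was between the sexes, in 1 fit of all 32 libraries. In ND-fed WT mice 2 genes were called, both higher in males, against 17.8% of the 14020 genes tested. Ephx2 was higher in males by a log2 difference of 0.78 (SE 0.12, edgeR adjusted p = 2.74e-05), at 888 ± 87.5 against 517 ± 74.7 CPM, with no overlap. Ephx1 was higher by 0.59 (SE 0.17, adjusted p = 0.0131), at 528 ± 92.4 against 350 ± 107 CPM, with overlap. The call of Ephx1 was lost without ND-fed WT females replicate 3 (adjusted p = 0.0798) or replicate 4 (0.0529). Ptgs1 was at 9.85 CPM in males and 14.5 CPM in females, a log2 difference of -0.56 (SE 0.20, adjusted p = 0.0553), or -0.68 (adjusted p = 0.0362) without ND-fed WT males replicate 4. The largest difference, that of Alox5ap, was -1.06 (adjusted p = 0.0998), at 0.980 CPM in males and 2.35 CPM in females. All 6 macrophage markers were called lower in males, where 9.45% of all genes were. Cyp2j6 and Cyp2j9 each passed without 1 library, Cyp2j6 at 0.46 (adjusted p = 0.0340) without ND-fed WT females replicate 3 and Cyp2j9 at -1.02 (adjusted p = 0.0472) without replicate 4 of the same group.

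The diet effect was then compared between males and females. In WT mice 0 of the 10 genes were called by edgeR, where 0.97% of all genes were. At an unadjusted p under 0.05 there were 3 of the 8 that passed the filter, and DESeq2 called 1, Ephx2, at -0.56 (adjusted p = 0.0494). In Cyp2b-null mice 3 genes were called, where 3.4% of all genes were. The fall of Ephx2 was larger in males than in females by 0.71 on the log2 scale (log2 difference -0.71, SE 0.17, adjusted p = 0.0183), and the call was lost without CDAHFD-fed Cyp2b-null males replicate 3 (-0.64, adjusted p = 0.0561). Ephx1, which fell in males and was not called in females, differed by -1.01 (SE 0.24, adjusted p = 0.0138), and this call remained without any 1 library.

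The diet effect on Ptgs1 in Cyp2b-null mice was higher in males by 0.97 (SE 0.28, edgeR adjusted p = 0.0457). This call was lost without any 1 of 13 of the 16 libraries of Cyp2b-null mice, with log2 differences of 0.84 to 1.03 and adjusted p of up to 0.132. It remained without ND-fed females replicate 3, CDAHFD-fed females replicate 4 or CDAHFD-fed males replicate 2. Without the library that stands apart, CDAHFD-fed females replicate 3, the adjusted p of Ptgs1 was 0.0757 while Ephx1 (-0.96, adjusted p = 0.0295) and Ephx2 (-0.65, adjusted p = 0.0380) were still called.

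For Alox5ap the difference in diet effect between the sexes was 1.48 in both genotypes and did not pass. The edgeR adjusted p was 0.215 in WT (SE 0.52) and 0.0762 in Cyp2b-null mice (SE 0.48). In Cyp2b-null mice it was 1.95 (adjusted p = 0.0273) without ND-fed males replicate 3. The macrophage markers Ctss, Lyz2 and Csf1r were called in the same comparison in both genotypes, at 1.88, 1.91 and 1.13 in WT and 1.60, 1.97 and 1.53 in Cyp2b-null mice. Of the pathway lists, Cyp2c29 (-1.55 in WT and -2.42 in Cyp2b-null mice) and the prostanoid exporter Abcc4 (2.05 and 3.16) were called in both genotypes. Cyp2c39 (2.85) was called in WT and Tbxas1 (1.51) in Cyp2b-null mice. On ND, Alox5ap was lower in males, at 0.980 CPM in WT and 1.61 CPM in Cyp2b-null mice, against 2.35 and 2.92 CPM in females. The part of these ND levels in the differences was not tested.

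Of 13783 genes that passed the joint filter and averaged 1 CPM or more, those whose log2 CPM followed each enzyme most closely over the 32 libraries were listed, as a description of libraries that share diet, sex and cell content. For Cyp2j5 they were Serpina1d (r = 0.976), Ces2a (0.976) and Ugt2a3 (0.972), and for Ephx2 Gpd1 (0.937), Acaa2 (0.930) and Klkb1 (0.928). For Alox5ap they were Ctss (0.964), which is also 1 of the 6 macrophage markers, Cotl1 (0.963) and Mfge8 (0.963). The closest genes were less alike for Ptgs1 (Abcb1a 0.821, Sp100 0.803, Mertk 0.797), Ephx1 (Aox1 0.816, Adck5 0.781, Slc25a10 0.773) and Cyp2j9 (Pxmp4 0.815, Bend7 0.814, Cyp3a25 0.814). For Lta4h they were Gm15452 (0.807), Serf1 (0.732) and Mrpl51 (0.728), and for Cyp2j6 Gm5537 (0.789), Slc25a17 (0.743) and Smu1 (0.742). Alox5 and Ptgs2 were too low to be compared in this way.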

How the data were processed

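Liver RNA was sequenced from 32 mice. Per the study's methods and labels, the authors trimmed reads with Trimmomatic, checked them with FastQC, aligned them to GRCm38.p6 with GSNAP and counted them per gene with Subread featureCounts; versions, strand and multiple-match settings are not given in the sources used here. RNA integrity numbers were above 8 and the kit (NEB Next Ultra) does not mark strand. The values deposited by the authors are raw counts per gene, in 1 table per sex, and were used as deposited. 2 date-like symbols that repeat were kept apart, and 0 columns were left unused.

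The 10 genes, the pathway lists and the marker lists were chosen with earlier results of these data known, so no list is independent evidence. Counts were tested with edgeR 4.0.16 (R 4.3.3), by the quasi-likelihood test over the 4 groups of each sex, with TMM scaling, the filterByExpr filter (minimum count 10, minimum total 15) and Benjamini-Hochberg adjustment over all genes tested. A joint fit of 32 libraries gave the sex comparisons and the CPM. Calls have an adjusted p under 0.05, and intervals are 1.96 standard errors wide on each side. That width uses a normal quantile, so an interval can exclude 0 where the test's unadjusted p is not under 0.05. Every one of the 10 genes is named. Of each pathway list, at most 3 rises and 3 falls per sex in WT are named, provided they were called and averaged 1 CPM or more, with any called in an interaction or a genotype comparison. For likeness the 3 genes with the highest Pearson r of log2(CPM + 1) were taken. Because nothing says how far animals shared cages or litters, p-values measure only the spread between these samples.

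Alternatives were DESeq2 1.42.0, no filter, a looser filter (1 CPM or more in at least 4 libraries), relative log expression (RLE) scaling and scaling by library totals alone. Others were only the groups compared, a replicate block and each library left out. The looser filter kept 14826 genes in females, against 13226 in the main fit. A fit that kept all 10 genes was added after the data were seen. Scripts were tested on simulated data. Across 48 pairs of same-numbered libraries the correlation of deviations ran from -0.206 to 0.306 (median 0.017), over 0.1 in 8, so the numbers were not taken to pair animals. No 2 libraries of a group agreed within sampling noise (chi-square per gene 3.34 to 65.5).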

Additional observations from a re-analysis of the deposited data

Results flagged for a closer look

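Among 64 groups of 4 libraries tested for 1 value far from the rest, 2 were flagged, where chance gives about 1 in 20. Cyp2j9 in replicate 1 of the CDAHFD-fed WT females stood at 3.06 CPM, with the others between 1.65 and 1.87 CPM, and it moved this group towards the ND level. Ephx2 in replicate 2 of the ND-fed Cyp2b-null males stood at 935 CPM, with the others between 878 and 881 CPM, a gap of little size beside the diet difference.

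In Cyp2b-null mice the diet effect differed between males and females for 3 genes by the test of the difference itself in edgeR, at a log2 difference of -1.01 for Ephx1, -0.71 for Ephx2 and 0.97 for Ptgs1 (males minus females). The summed hepatocyte markers were lower on CDAHFD in both sexes, at a mean of 154050 CPM on ND and 94391 CPM on CDAHFD in females and 114137 and 71638 CPM in males, and their part in these differences was not tested. Sex and count table cannot be told apart.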

How the results depend on the processing

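Of 1326 values recomputed under alternatives, 1250 kept their direction and their side of the threshold. Among these are 32 uncalled gene values that crossed 0 by less than their standard error. A call was lost in 49 cases and gained in 16. The 13 counts of genes called stayed within 1.5 times of the values in the report, with 4 exceptions. With libraries scaled by their totals alone, 2 genes were called for diet in WT females (1 higher, 1 lower), where 4401 of all 13226 were. DESeq2 called 1 gene for diet by sex in WT mice, where it called 220 of all 14020. With only the groups compared in the fit, 1 gene was called between the sexes on ND, where 1534 of all 12154 were. Leaving out 1 library at a time gave 1 to 3 genes for diet by sex in Cyp2b-null mice, the lowest without CDAHFD-fed Cyp2b-null males replicate 3.

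All 7 reversals came from scaling by library totals alone. They were Cyp2j6 in WT females (0.18), WT males (0.056) and Cyp2b-null males (0.12), Ephx1 in WT males (0.023), Lta4h in WT males (0.35) and Cyp2b-null males (0.26), and Ptgs1 in Cyp2b-null females (0.13). That scaling moved the median of all genes to 0.32 and 0.28 in WT and Cyp2b-null females and to 0.37 and 0.36 in males, so each of the 7 lay below the median. Without the low-count filter the diet calls of Cyp2j6 (adjusted p = 0.0938) and Ephx1 (0.0577) in WT males were lost, and with only the groups compared likewise (0.105 and 0.0909). The call of Ephx1 between the sexes was lost with only the groups compared (0.0691). The cause of these losses was not tested. In Cyp2b-null mice the difference of Alox5ap between the sexes passed without the filter (adjusted p = 0.0348) and with DESeq2 (0.0425). That of Ptgs1 did not pass with the looser filter of 1 CPM or more in at least 4 libraries (0.0510).

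With the replicate number as a block, the genes called summed to 26 over the 13 comparisons, against 25 without it. In 1 comparison, sex on ND in WT mice, the count changed from 2 to 3 through Alox5ap (-1.13, adjusted p = 0.0475). There 2499 of all 14020 genes were called. Under the block, diet by sex in Cyp2b-null mice lost Ptgs1 (adjusted p = 0.0542) and gained Alox5ap (0.0417) at the same count, and the diet call of Alox5 in Cyp2b-null males was lost (0.0842). Every sample shared only a number with its counterpart, and the median correlation of deviations was 0.017. In the fit that kept all 10 genes, 7 were called in WT males (2 higher, 5 lower) and 7 in Cyp2b-null males (3 higher, 4 lower). Of all 13462 genes in that fit, 4443 were called in WT males and 5038 in Cyp2b-null males. Depth limits Alox5 (41 counts in all) and Ptgs2 (45 counts in all) the most.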
